A study of Mus musculus with 4 samples.

Results

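The Ajuba and zyxin family of LIM adaptor proteins was followed in mouse proximal tubular cells transfected with an siRNA against *Itgb6* or a scrambled control. The family was taken as 7 genes, found by symbol among the 22063 genes listed: *Ajuba*, *Wtip* and *Limd1* of the Ajuba subfamily, *Zyx*, *Lpp* and *Trip6* of the zyxin subfamily, and *Fblim1*, which encodes migfilin. The set was chosen by symbol and selected on the measured counts of these libraries, with the difference between si-*Itgb6* and si-NC already known, so the differences of these 7 genes are given below as a description and without a test. All 7 genes passed the filter on low counts and were among the 11727 genes tested.

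TKPTS cells, labelled TKPT, are an immortalised line of mouse proximal tubule epithelium. Both groups had been through the same hypoxia/reoxygenation injury, with 24 h at 1% O2 followed by 12 h in a normal incubator, and differed only in the transfected siRNA, a scrambled control (si-NC) or one against *Itgb6* (si-*Itgb6*). *Itgb6* encodes the β6 chain of integrin αvβ6. The paper reported less αvβ6 protein on western blots of hypoxic si-*Itgb6* cells, a measure that RNA counts do not give. Its methods state that qPCR, a measure of RNA, was also used to verify the inhibition by the siRNA. The counts of *Itgb6* in these libraries, given below, did not show such a fall. There were 2 libraries of bulk polyadenylated RNA per group, si-NC replicates 2 and 3 and si-*Itgb6* replicates 1 and 3. All 4 came from 1 cell line, and no label said whether the cultures were separate, so the spread between libraries may be technical.

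LIM domains are paired zinc fingers that bind other proteins rather than DNA in these adaptors, and every member of the family carries a run of them at its C-terminal end. The proteins sit at focal adhesions, stress fibres and cell-cell junctions, and several of them also enter the nucleus. Ajuba, WTIP and LIMD1, and also TRIP6, bind the LATS kinases of the Hippo pathway and hold them at junctions under tension, where LATS is less able to phosphorylate YAP, the transcriptional coactivator at the end of the pathway. Zyxin and LPP bring Ena/VASP proteins and α-actinin to actin fibres, and migfilin links filamin to kindlin.

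The 4 libraries held between 15435074 and 17220281 estimated counts. *Itgb6* itself had 285 and 284 counts in the si-NC libraries and 279 and 260 in those labelled si-*Itgb6*. Its log2 fold change was -0.0051 ± 0.13 (SE; adjusted p = 0.991, edgeR quasi-likelihood test with Benjamini-Hochberg adjustment), so no lower level of the target transcript was detected, and the groups are named as labelled throughout. Of 12 proximal tubule markers, *Slc34a1*, *Slc5a2*, *Slc22a6* and *Slc22a8* were at 0 in every library, and *Pax8* made most of the summed level, which ran from 318 to 402 CPM (counts scaled to the library size). Of these markers 1 was called, *Aqp1*, the water channel of the proximal tubule, which was higher in si-*Itgb6* (23.7 and 27.6 CPM in si-NC, 38.8 and 38.4 CPM in si-*Itgb6*; log2 fold change 0.59, adjusted p = 0.000617, edgeR). The 8 epithelial markers summed to between 4557 and 4808 CPM. The 8 macrophage markers summed to between 133 and 151 CPM, mostly *Cd68*, and the fibroblast and endothelial lists to at most 5.94 and 4.31 CPM.

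TEAD factors are the DNA-binding partners of YAP, and the upstream sequences of 3 members are shown as examples of windows with several copies of the TEAD core word (*Wtip* and *Ajuba*) and with 1 copy (*Trip6*). Each line gives the 250 bases before the RefSeq start site on build GRCm38.p6, 5′ to 3′ on the gene's own strand. Capitals mark GGAATG or its reverse complement CATTCC. *Ajuba* is at chr14:54577662-54577911 (minus strand), *Wtip* at chr7:34133269-34133518 (minus strand) and *Trip6* at chr5:137314242-137314491 (minus strand).
Ajuba: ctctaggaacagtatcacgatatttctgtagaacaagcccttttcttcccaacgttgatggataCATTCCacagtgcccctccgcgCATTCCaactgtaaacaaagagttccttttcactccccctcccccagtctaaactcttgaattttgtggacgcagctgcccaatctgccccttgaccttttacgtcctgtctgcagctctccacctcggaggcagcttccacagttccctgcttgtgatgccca
Wtip: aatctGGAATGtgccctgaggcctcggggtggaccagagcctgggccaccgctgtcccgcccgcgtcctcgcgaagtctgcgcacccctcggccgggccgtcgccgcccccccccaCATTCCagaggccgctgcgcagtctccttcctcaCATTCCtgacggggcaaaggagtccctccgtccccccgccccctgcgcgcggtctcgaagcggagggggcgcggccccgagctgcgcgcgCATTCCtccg
Trip6: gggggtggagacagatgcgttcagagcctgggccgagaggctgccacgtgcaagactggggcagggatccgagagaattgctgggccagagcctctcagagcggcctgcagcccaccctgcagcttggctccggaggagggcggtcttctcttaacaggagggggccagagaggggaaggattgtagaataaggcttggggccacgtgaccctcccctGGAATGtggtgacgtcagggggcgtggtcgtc

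The word was searched on both strands in RefSeq windows of 300 bases, from 250 before to 50 after each start site. It was found in 14.7% of 32851 such windows, at least 2 times in 1.36% and at least 4 times in 6 windows, or 0.0183%. *Wtip* was among those 6, with first bases at -245, -134, -100 and -10 from the start site, in a window of 75.0% GC. *Ajuba* held it 2 times, at -186 and -164, in a window of 54.0% GC. *Trip6* held it once, at -32. Of the 2 windows of *Fblim1* and the 2 of *Lpp*, 1 each held it once, at -71 and -182, and the single window of *Zyx* had none. *Limd1* was not matched. Of 2 other motifs searched, the AP-1 word TGANTCA, present in 7.81% of all windows, was found for *Zyx* and *Fblim1*, and the CArG box, present in 1.63%, for *Trip6*; neither overlapped the TEAD word. These are matches of letters, binding at them was not measured, and no relation of the copies to the levels below was tested.

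*Ajuba* and *Wtip* were lower in both si-*Itgb6* libraries than in either si-NC library, and *Limd1* had a lower mean with overlapping libraries. *Zyx* was lower by less, and *Lpp*, *Trip6* and *Fblim1* stayed within 10% of their si-NC means. The study called a gene when its fold change was over 1.2 at p under 0.05 without adjustment. The fit here called more genes in each direction by that rule than the paper reported. On that rule 2 of the 7 members were called lower and 0 higher, where 5.20% of all genes tested were called lower and 4.37% higher. These counts used the contrast by which the set was named, so nothing is read from them. The median log2 fold change of the 7 was -0.17, beside 0.00017 over all genes tested.

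*Ajuba* (ENSMUSG00000022178, chr14:54567472-54577558, minus strand, 8 exons in its longest transcript) encodes the founding member of its subfamily, a LATS-binding protein of adherens junctions. It had 74.0 and 65.3 CPM in si-NC replicates 2 and 3 and 50.6 and 44.4 CPM in si-*Itgb6* replicates 1 and 3. Both si-*Itgb6* libraries lay well below both si-NC libraries. The group means were 69.7 ± 6.19 and 47.5 ± 4.33 CPM (SD, n = 2), a difference of -31.8%, or -0.55 ± 0.086 (SE) on the log2 scale. With each library left out in turn it ran from -0.65 to -0.46. The count of *Ajuba* was not whole in si-*Itgb6* replicate 1, at 783.08.

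*Wtip* (ENSMUSG00000036459, chr7:34109543-34133268, minus strand, 8 exons) encodes a relative of Ajuba first known as a partner of the podocyte transcription factor WT1. Its level was 25.9 and 26.3 CPM in si-NC and 20.9 and 19.6 CPM in si-*Itgb6*. The si-NC libraries were close to each other, and both si-*Itgb6* libraries were lower. The means were 26.1 ± 0.246 and 20.3 ± 0.928 CPM (SD, n = 2), a difference of -22.4% and a log2 fold change of -0.37 ± 0.12 (SE).

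*Limd1* (ENSMUSG00000025239, chr9:123478706-123521552, plus strand, 8 exons) encodes the third Ajuba subfamily member, which also scaffolds prolyl hydroxylases with VHL and takes part in miRNA silencing. Its counts gave 39.4 and 34.5 CPM in si-NC and 36.2 and 29.3 CPM in si-*Itgb6*. The groups overlapped, since si-*Itgb6* replicate 1 was above si-NC replicate 3. At -0.17 ± 0.11 (SE), its log2 fold change ran from -0.34 to -0.02 with 1 library left out. Summed over the 3 genes, the Ajuba subfamily stood at 139 and 126 CPM in si-NC and 108 and 93.3 CPM in si-*Itgb6*. The means differed by -24.3%, from 133 to 101 CPM, and most of this was *Ajuba*, from 69.7 to 47.5 CPM.

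*Zyx* (ENSMUSG00000029860, chr6:42349630-42360213, plus strand, 11 exons) encodes zyxin, the mechanosensitive adaptor of focal adhesions and stress fibres. It had 152.3 and 153.5 CPM in si-NC and 137 and 125 CPM in si-*Itgb6*. The groups did not overlap, and the log2 fold change of -0.22 ± 0.064 (SE) was under the fold threshold of 1.2. Its exons overlap those of *Epha1* on the other strand, which a library without strand information cannot separate.

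*Lpp* (ENSMUSG00000033306, chr16:24393507-24992578, plus strand, 13 exons) encodes the lipoma preferred partner, the closest relative of zyxin. Its level was 224 and 247 CPM in si-NC and 255 and 229 CPM in si-*Itgb6*, and the groups overlapped. The log2 fold change was 0.04 ± 0.06 (SE) and changed sign when single libraries were left out. Exons of *Lpp* overlap those of *Lppos* on the other strand.

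*Trip6* (ENSMUSG00000023348, chr5:137309654-137314404, minus strand, 9 exons) encodes the zyxin relative that binds LATS and competes with MOB1. It had 64.6 and 70.6 CPM in si-NC and 74.4 and 71.0 CPM in si-*Itgb6*. Both si-*Itgb6* libraries were higher, though replicate 3 only just passed si-NC replicate 3, and the log2 fold change was 0.10 ± 0.077 (SE). The 3 zyxin subfamily genes together stood at 441 and 471 CPM in si-NC and 467 and 425 CPM in si-*Itgb6*, a difference of -2.27% with overlapping groups.

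*Fblim1* (ENSMUSG00000006219, chr4:141576062-141606096, minus strand, 9 exons) encodes migfilin. Its 76.1 and 83.7 CPM in si-NC and 75.9 and 77.3 CPM in si-*Itgb6* overlapped, with a log2 fold change of -0.06 ± 0.075 (SE). In all, 3 members did not overlap between the groups in the lower direction (*Ajuba*, *Wtip* and *Zyx*) and 1 in the higher (*Trip6*). Over all genes tested, 25.4% did so in the lower direction and 23.8% in the higher, so with 2 libraries a group such a separation was common. In bulk RNA, fewer cells expressing a gene and less RNA per cell cannot be told apart.

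**Figure D1:**
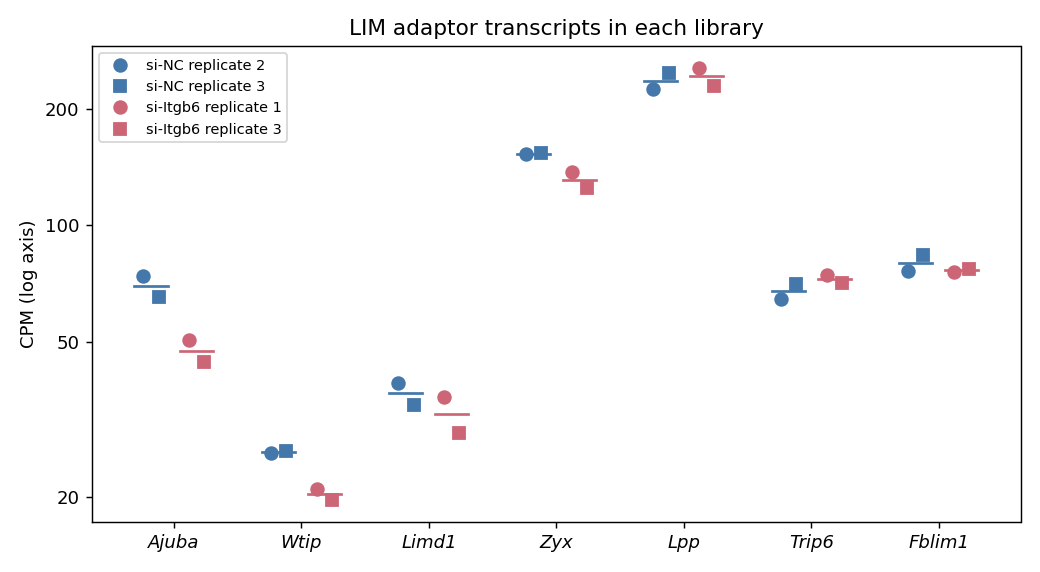
Level of each LIM adaptor in CPM (log axis) in the 4 libraries, si-NC in blue and si-Itgb6 in red; points are libraries and bars are the means of 2. The red points of Ajuba (50.6 and 44.4 CPM) and Wtip (20.9 and 19.6 CPM) lie below the blue ones, and those of Limd1, Lpp and Fblim1 overlap them.

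The fold changes of this comparison ran with base composition. Over 11709 genes tested that had a transcript in GENCODE vM21 (GRCm38), Spearman's rho between the log2 fold change and the GC content of the longest transcript was -0.364, a correlation across genes, which share their libraries and are not replicates. *Wtip*, at 66.2% GC, was richer in GC than 99.8% of those genes, and *Ajuba*, at 58.3%, than 91.5%. *Trip6* had 57.9% GC and was higher in si-*Itgb6*, with a log2 fold change of 0.10. *Zyx* had 56.6%, *Fblim1* 52.6%, *Limd1* 52.4% and *Lpp* 42.9%, beside a median of 49.8%.

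After the trend of each library with GC content and with length had been removed, the log2 fold change of *Ajuba* was -0.43 ± 0.08 (SE). That of *Wtip* was -0.15 ± 0.11, under the fold threshold, and that of *Zyx* -0.12 ± 0.06. *Trip6* moved away from 0, from 0.10 to 0.21 ± 0.074. *Lpp* changed sign to -0.07, and *Limd1* and *Fblim1* were at -0.12 and -0.02. The part of base composition in the difference of *Wtip* was not tested beyond this.

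**Figure D2:**
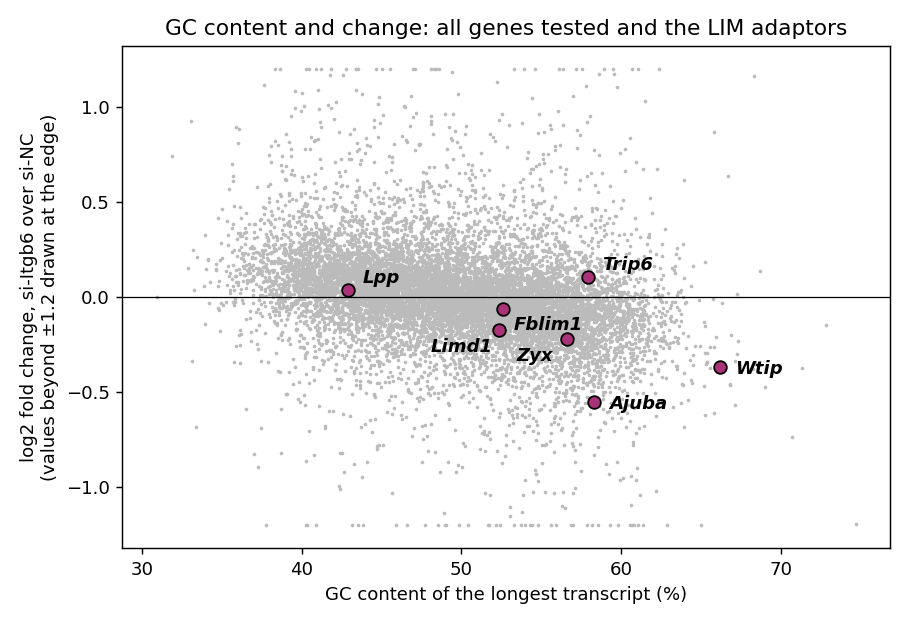
GC content of the longest transcript (%) against the log2 fold change of si-Itgb6 over si-NC, for the genes tested (grey) and the 7 LIM adaptors (purple); values beyond ±1.2 are drawn at the edge. Grey points fall from left to right (rho -0.364), and Wtip is the purple point farthest to the right at 66.2% GC. Ajuba lies below 0 and Trip6 above it.

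**Figure D3:**
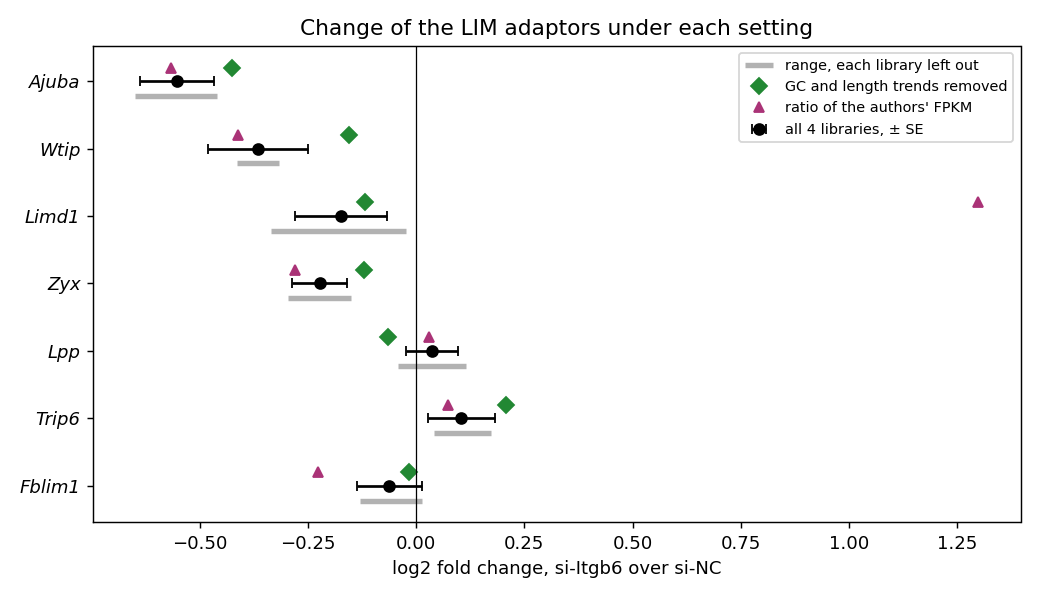
Log2 fold change of each LIM adaptor, si-Itgb6 over si-NC, from edgeR with all 4 libraries (black, bars ± SE), the range with each library left out (grey), with GC and length trends removed (green), and as the ratio of the authors' FPKM (purple). Ajuba stays left of 0 throughout, Wtip moves to -0.15 in green, and the purple mark of Limd1 stands alone at 1.30.

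Between genes, levels were compared per length, as the authors' FPKM (fragments scaled to transcript length and library size). In si-NC the order of mean FPKM was *Zyx*, *Fblim1*, *Trip6*, *Ajuba*, *Lpp*, *Wtip* and *Limd1*. *Zyx* led with 66.2 and 68.5 FPKM in the 2 libraries. *Fblim1*, with 32.8 and 36.0 FPKM, and *Trip6*, with 30.0 and 33.4 FPKM, overlapped, and every other pair of neighbours in the order was separate in both libraries. *Ajuba* followed with 21.9 and 19.3 FPKM, *Lpp* with 14.8 and 16.1, *Wtip* with 14.1 and 14.4, and *Limd1* came last with 8.17 and 7.14 FPKM. *Lpp*, which had the most counts of the family, was thus in the lower part of the order per length, its longest transcript being 15459 bases.

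In si-*Itgb6* the order became *Zyx*, *Trip6*, *Fblim1*, *Limd1*, *Lpp*, *Ajuba* and *Wtip*. *Zyx* had 59.5 and 51.5 FPKM, *Trip6* 34.4 and 32.3, and *Fblim1* 29.5 and 29.4. *Ajuba*, at 14.9 and 12.9 FPKM, overlapped *Lpp*, at 16.8 and 14.7, and *Lpp* overlapped *Limd1*. *Wtip* was lowest with 11.3 and 10.1 FPKM. The exchange of *Trip6* and *Fblim1* between the groups came with the authors' lengths: per longest transcript, on the scale of FPKM, *Trip6* stood above *Fblim1* in si-NC too, at 30.0 and 32.7 against 24.7 and 27.1, as it did in si-*Itgb6*, at 34.4 and 32.3 against 24.5 and 24.6.

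*Limd1* changed place in this order. Its FPKM was 21.5 and 16.1 in the si-*Itgb6* libraries, against 8.17 and 7.14 in si-NC, a log2 ratio of the means of 1.30, while its counts gave a log2 fold change of -0.17. Counts and FPKM of the same gene in the same library thus pointed in opposite directions. The deposited FPKM, the count and the library total together fix the transcript length by which the authors' values were divided. In 619 of 635 genes with a single annotated transcript (97.5%) this implied length was within 0.5% of the annotated one.

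For *Limd1* the implied length was 4848 bases in both si-NC libraries, the length of the full protein-coding transcript Limd1-201. It was 1688 and 1790 bases in si-*Itgb6* replicates 1 and 3. The log2 ratio of the group means was -1.48, the most negative of 9832 genes with at least 50 counts in every library, and *Limd1* was the only one of them whose implied length differed by more than 2-fold. The next most negative value was -0.81, and the genes between percentiles 5 and 95 lay between -0.11 and 0.13.

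GENCODE vM21 lists 5 transcripts of *Limd1*, of 4848, 2986, 699, 580 and 216 bases. The annotation used by the authors is not known and may list others, so the shares below hold only for this set. By arithmetic alone, a mix of Limd1-201 with the 216-base Limd1-205, also annotated as protein coding, has the implied length of si-*Itgb6* replicate 1 if 68.2% of molecules are the short form. That form would then hold 8.73% of the counts, or 49.0 counts. In replicate 3 the same mix would need 66.0% of molecules and 38.4 counts. With the 699-base transcript in place of it, the share in replicate 1 would be 76.2% of molecules and 31.6% of the counts. Counts per transcript were not analysed here, so which transcripts were assigned reads is not known, and the program that assigned them is not given in the sources used here. Divided by the longest transcript in every library, *Limd1* had 7.66 ± 0.730 in si-NC and 6.73 ± 1.09 in si-*Itgb6* (on the scale of FPKM, SD, n = 2), the lowest of the 7 in both groups.

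**Figure D4:**
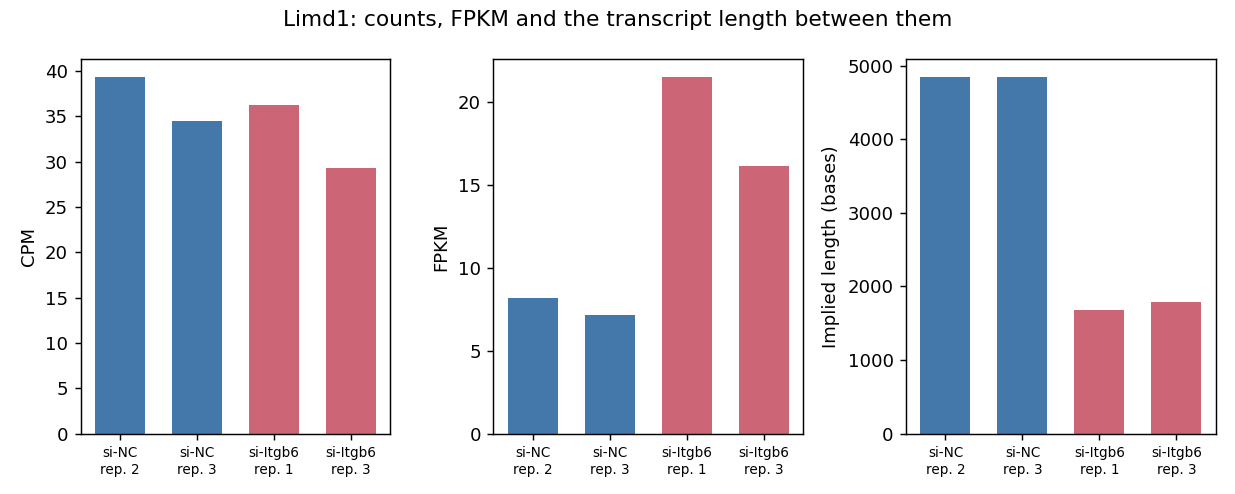
Limd1 in each library: CPM from the estimated counts (left), the authors' FPKM (middle) and the transcript length in bases that the 2 values imply (right); each bar is 1 library. The CPM of the groups overlap, while FPKM is higher and the implied length shorter, at 1688 and 1790 bases against 4848, in both si-Itgb6 libraries.

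The other members showed no shift of this size. The implied length of *Ajuba* was 3397 bases in all 4 libraries, so its FPKM repeated its counts. That of *Wtip* was 1855 and 1831 bases in si-NC and 1859 and 1913 in si-*Itgb6*, and that of *Zyx* ran from 2250 to 2391 bases. *Fblim1* had 2332 and 2331 bases in si-NC and 2583 and 2592 in si-*Itgb6*, a log2 ratio of 0.15 that ranked 716 of 9832 by size. Its FPKM accordingly gave a log2 ratio of -0.23, beside -0.06 from its counts.

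Genes around the LIM adaptors, called the partner lists here, were taken as 9 lists of 96 genes in all, of which 88 were tested. They cover proteins that the adaptors bind or work beside. However, 1 list holds 24 other LIM domain genes, which are not partners, and the pooled counts include it. By the study's thresholds 10 of the 88 were lower and 3 higher in si-*Itgb6*, beside 5.20% lower and 4.37% higher over all genes tested, the shares against which the counts of each list below are to be read. Their median log2 fold change was -0.07. After Benjamini-Hochberg adjustment over all genes (edgeR), 9 were lower and 1 higher at an adjusted p under 0.05, where 2.52% of all genes were lower and 2.11% higher. With GC and length trends removed the study's thresholds called 6 lower and 1 higher, and without si-NC replicate 2 they called 4 lower and 0 higher. The lists were drawn up with earlier results of these libraries known.

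Among 10 genes of the Hippo pathway, 1 was lower and 2 were higher, beside 5.20% and 4.37% of all genes. *Yap1*, which encodes YAP, had 91.1 and 75.1 CPM in si-NC and 64.4 and 69.3 CPM in si-*Itgb6*, a log2 fold change of -0.31 ± 0.083 (SE; adjusted p = 0.0239, edgeR). *Lats1*, the kinase that the Ajuba proteins bind, went the other way, from 55.7 and 61.8 CPM to 76.7 and 66.5 CPM, with a log2 fold change of 0.28 ± 0.083 (SE; adjusted p = 0.0422, edgeR). Its paralog *Lats2* had 26.4 CPM in both si-NC libraries and 28.9 and 25.7 CPM in si-*Itgb6*, with overlapping groups. *Mob1b*, an activator of LATS, had 42.8 and 49.9 CPM in si-NC and 63.0 and 51.7 CPM in si-*Itgb6* and passed the study's thresholds (log2 fold change 0.30 ± 0.094) with an adjusted p of 0.0568 from edgeR. None of these 3 calls held without si-NC replicate 2, where *Yap1* was at -0.17, *Lats1* at 0.21 and *Mob1b* at 0.20, or without si-*Itgb6* replicate 1, where they were at -0.26, 0.18 and 0.16. Once the GC and length trends were removed, *Lats1* (0.22) and *Mob1b* (0.17) were not called, and *Yap1* (-0.34) was. With DESeq2 the adjusted p was 0.0614 for *Yap1* and 0.0982 for *Lats1*. Exons of *Yap1* overlap those of *Gm20416* on the other strand, and exons of *Lats2* overlap those of *Gm49361* on the same strand.

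Of 10 partners of zyxin on actin fibres, only *Raver1* was called, and it was lower. *Raver1* encodes a vinculin- and α-actinin-binding protein and had 87.6 and 88.1 CPM in si-NC and 72.5 and 65.2 CPM in si-*Itgb6*. The difference was -0.35 ± 0.075 on the log2 scale (SE; adjusted p = 0.00388, edgeR), though its exons overlap other genes and its estimated counts were not whole. With GC and length trends removed it was at -0.22 and no longer called. *Actn4*, encoding α-actinin 4 and named after its value was seen, was under the fold threshold at -0.17 ± 0.047 (adjusted p = 0.0266, edgeR). Its exons overlap those of *Capn12* on the other strand. The median of the list was -0.10.

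Of the 6 filamins and kindlins, the partners of migfilin, 5 were tested and 0 were called. *Flna*, which encodes filamin A and is named after its value was seen, had 631 and 597 CPM in si-NC and 514 and 529 CPM in si-*Itgb6*. Its log2 fold change of -0.23 ± 0.049 (SE) had an adjusted p of 0.00319 (edgeR) and was under the fold threshold.

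The focal adhesion scaffold had 14 of 15 genes tested, 3 lower and 0 higher, with a median of -0.07. *Tln1*, encoding talin 1, which joins integrin tails to actin, had 149.6 and 133 CPM in si-NC and 107 and 105 CPM in si-*Itgb6*. This was -0.41 ± 0.067 on the log2 scale (SE; adjusted p = 0.000264, edgeR) and -0.31 with GC and length trends removed. *Src*, which encodes a tyrosine kinase that acts at focal adhesions, had 85.1 and 82.2 CPM in si-NC and 64.9 and 67.7 CPM in si-*Itgb6*, a log2 difference of -0.34 ± 0.074 (SE; adjusted p = 0.00557, edgeR) that was -0.19 and not called with the trends removed. *Tln2* was called at -0.37 ± 0.16, with an adjusted p of 0.202 (edgeR), and the call was lost when si-NC replicate 2 (-0.12) or si-*Itgb6* replicate 3 (-0.25) was left out. *Tln1*, *Src* and *Raver1* kept their calls with each library left out. Exons of *Tln1* overlap those of *Creb3* on the other strand.

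Of 24 other LIM domain genes, 19 were tested, 0 were lower and 1 was higher, with a median of -0.05. The higher gene was *Fhl3*, which encodes another LIM cofactor of transcription, at 8.77 and 12.3 CPM in si-NC and 12.98 and 14.9 CPM in si-*Itgb6*, a difference of 0.41 ± 0.16 (SE) in log2, with an adjusted p of 0.159 from edgeR. It was not called once si-NC replicate 2 (0.19) was left out, nor with si-*Itgb6* replicate 3 left out (0.30).

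At adherens junctions 1 of 9 genes was called. *Ctnnb1*, which encodes β-catenin, was lower, with 430.0 and 399 CPM in si-NC and 345 and 337 CPM in si-*Itgb6* and a log2 fold change of -0.28 ± 0.052 (SE; adjusted p = 0.000989, edgeR). It was under the fold threshold once the trends were removed (-0.26), and also without si-NC replicate 2 (-0.23). Exons of *Ctnnb1* overlap those of *Ulk4* on the other strand and of *Mir7090* on the same strand. *Ctnna1* encodes α-catenin, the protein that holds Ajuba and LIMD1 at junctions, and is named after its value was seen. It had 902 and 926 CPM in si-NC and 888 and 923 CPM in si-*Itgb6*, with overlapping groups. Its exons overlap those of *Lrrtm2* on the other strand.

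The oxygen-sensing genes are of interest because LIMD1 brings prolyl hydroxylases and VHL together to degrade HIF-1α. All 7 were tested, 2 were lower and 0 higher, and the median was -0.18. *Egln1*, which encodes the prolyl hydroxylase PHD2, had 242 and 215 CPM in si-NC and 188 and 186 CPM in si-*Itgb6*. On the log2 scale it fell by 0.29 ± 0.06 (SE; adjusted p = 0.00307, edgeR), and it was not called with the trends removed (-0.19) or without si-NC replicate 2 (-0.20). *Vhl* had 44.1 and 43.3 CPM in si-NC and 36.5 and 35.3 CPM in si-*Itgb6*, a log2 fold change of -0.28 ± 0.091 (SE) with an adjusted p of 0.0672 from edgeR. Without si-*Itgb6* replicate 3 it was at -0.26 and not called.

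Of 15 miRNA silencing genes, 1 was lower and 0 higher, with a median of 0.05. The lower one was the decapping cofactor gene *Dcp1b*, whose counts were 36 and 15 in si-NC and 9 and 10 in si-*Itgb6*. Its log2 fold change of -1.35 ± 0.55 (SE; adjusted p = 0.163, edgeR) was -0.54 without si-NC replicate 2, and with 1 library left out it was called only when that library was si-NC replicate 3. The Ajuba proteins are also corepressors of Snail factors. Of 4 genes in the Snail list, 3 were tested, 1 was lower and 0 higher, with a median of -0.07. *Snai1*, which encodes Snail, had 43 and 25 counts in si-NC and 6 and 9 counts in si-*Itgb6*, and fell by 2.10 ± 0.52 on the log2 scale (SE; adjusted p = 0.0150, edgeR). Without si-NC replicate 2 it was at -1.61 and not called. Its relatives *Snai2* and *Snai3* are named after their values were seen. *Snai2* was at 0 in every library. *Snai3* had 3.49 and 2.78 CPM in si-NC and 3.03 and 4.13 CPM in si-*Itgb6*, with overlapping groups.

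**Figure D5:**
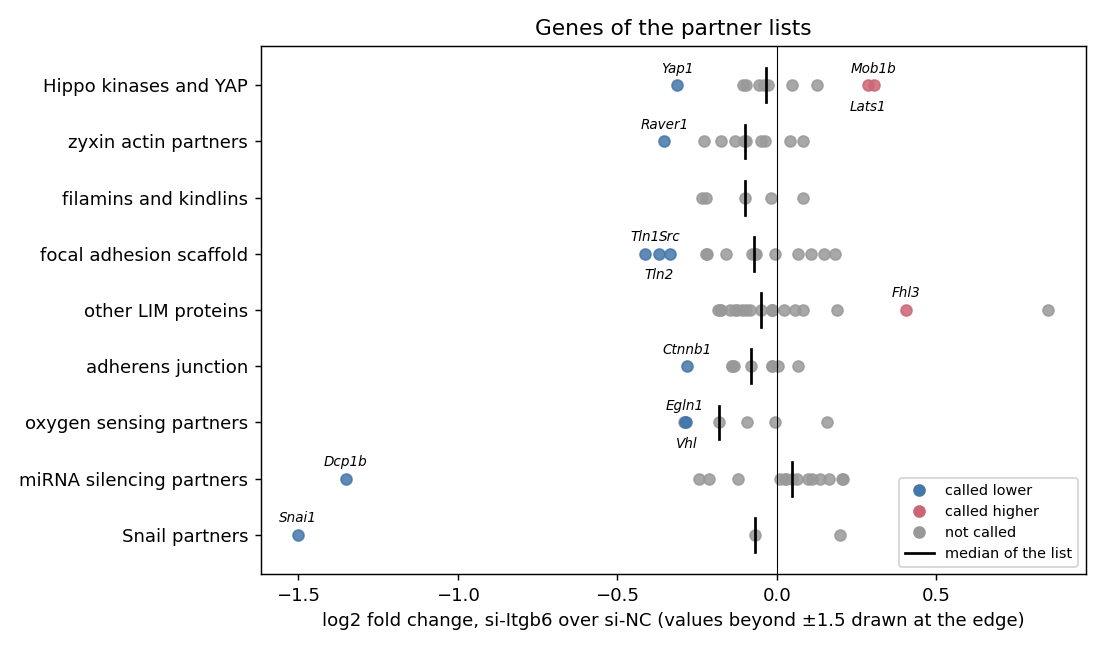
Log2 fold change, si-Itgb6 over si-NC, of each tested gene in the 9 partner lists, of which 1 holds other LIM domain genes. Each point is 1 gene, blue called lower, red called higher, grey not called, and the bar is the median of the list. Most points lie within 0.25 of 0, Snai1 (-2.10, drawn at the edge) and Dcp1b lie far to the left, and the list medians run from -0.18 to 0.05.

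Over the 4 libraries, the gene whose centred log2 CPM lay nearest to that of *Ajuba* was *Prr12*, at a Euclidean distance of 0.0610, with 18.1 and 16.8 CPM in si-NC and 12.7 and 11.2 CPM in si-*Itgb6*. *Irak3* followed at 0.0648, though it had at most 1.35 CPM. The nearest to *Wtip* were *Pcdh1*, which encodes a protocadherin, at 0.0298, and *H2ax*, which encodes a histone H2A variant, at 0.0309. *Pcdh1* had 57.3 and 57.5 CPM in si-NC and 46.8 and 44.3 CPM in si-*Itgb6*. Likeness over 4 libraries is a description and rests mostly on the difference between the groups.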

How the data were processed

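Bulk polyadenylated RNA was sequenced by the authors as paired 150-base reads without strand information, and the deposited values were estimated counts and FPKM per gene. The aligner, counter, genome build and annotation are not given in the sources used here. Libraries held 15435074 to 17220281 counts, of which 1447 to 1500 genes had a value that was not whole. Counts were rounded and fitted with edgeR 4.0.16 in R 4.3.3 (TMM factors, filterByExpr with a minimum count of 10, quasi-likelihood test, common biological coefficient of variation 0.0551), with p-values adjusted over all 11727 genes by Benjamini-Hochberg. Calls used the thresholds of the study. CPM were scaled by TMM. Chi-square per gene between libraries of a group was 3.21 and 4.08, so no library was a copy of another. Alternatives were DESeq2 1.42.0, other scaling and filters, GC and length trends (lowess, span 0.3), thresholds and left-out libraries.

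The members, lists and motifs were chosen with earlier results of these data known. Named were the 7 members, *Itgb6*, called genes of each list (at most 4 per direction), *Lats1*, *Lats2*, *Yap1*, and the 2 genes nearest to *Ajuba* and to *Wtip*. Outside this rule, *Actn4*, *Flna*, *Ctnna1*, *Snai2*, *Snai3* and the cell type markers were named after their values were seen. Distances used log2 CPM with a pseudocount of 0.5. GENCODE vM21 gave positions and lengths, with 99.6% of the listed identifiers matched, and RefSeq gave promoters for 6 of the 7 members. Protein sequences were not analysed here.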

Additional observations from a re-analysis of the deposited data

How the results depend on the processing

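With 2 libraries a group, calls depended on single libraries. Over all genes, 610 lower and 512 higher calls became 383 and 320 with DESeq2, 295 and 247 at an adjusted p under 0.05 and 110 and 125 at a fold change over 1.5. With 1 library left out they ran from 402 to 768 lower and from 338 to 645 higher, lowest without si-NC replicate 2. Of the partner lists, 10 lower and 3 higher became 6 and 1 with GC and length trends removed, 2 and 0 at a fold change over 1.5, and 9 and 1 at an adjusted p under 0.05. With 1 library left out they ran from 4 to 14 and from 0 to 4. Without si-NC replicate 2 they were 4 and 0, and without si-Itgb6 replicate 1 the higher count was 1. The causes were not tested.

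Of the members' log2 fold changes under each alternative, 68 stayed within 1 SD of the main value and 9 did not. The SD was the spread between replicates of the same gene. Leaving out 1 of 2 libraries moves a group mean by about this SD at most, so those fits passed almost by design. The tally is therefore no measure of stability. With trends removed, Wtip was at -0.15, Zyx at -0.12 and Trip6 at 0.21. From the authors' FPKM, Limd1 was at 1.30 and Fblim1 at -0.23, each by the length implied. With 1 library left out, Ajuba ran from -0.65 to -0.46, Wtip from -0.41 to -0.32, Limd1 from -0.34 to -0.02, Zyx from -0.30 to -0.15, Lpp from -0.04 to 0.12, Trip6 from 0.04 to 0.17 and Fblim1 from -0.13 to 0.013. A lone remaining library was assumed to vary like the other group. Levels per longest transcript in place of the authors' FPKM moved for Limd1 in si-Itgb6 (6.73), Wtip in si-NC (13.4), Zyx (48.2 and 40.9 in si-NC and si-Itgb6) and Fblim1 (25.9 and 24.6). No paired analysis was possible because the groups share only 1 replicate number. Groups of 2 are too small for a search for outlying libraries.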
